A study of Homo sapiens with 4 samples.

Results

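The genes described here encode tubulin, the building block of microtubules. They are 6 beta-tubulin genes (TUBB, TUBB2A, TUBB2B, TUBB3, TUBB4B and TUBB6) and 4 alpha-tubulin genes (TUBA1A, TUBA1B, TUBA1C and TUBA4A). They were chosen by name, with earlier results of these data known, and are 10 of the 43296 gene names in the deposited count tables. All 10 were found in the tables of every library.

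The data come from 5′ single-cell RNA-seq of human tumour cell lines, H1299 (non-small-cell lung carcinoma) and HCT116 (colorectal carcinoma). Each line was given either vehicle (DMSO) or DAC plus SB939, here DAC+SB. DAC inhibits DNA methyltransferases and was applied for 72 h at a dose of 500 nM. SB939 inhibits histone deacetylases and was applied for 18 h, also at 500 nM. The 4 groups are therefore H1299 with DMSO, H1299 with DAC+SB, HCT116 with DMSO and HCT116 with DAC+SB, all from cultures at passage 5 to 10 whose medium was renewed every 24 h. Each group is 1 library, so no difference has a replicate check. Every interval given is a 95% interval that covers counting error only. The 2 drugs were given together, so their parts cannot be told apart.

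Microtubules are polymers of alpha-tubulin and beta-tubulin dimers. They form the mitotic spindle, carry intracellular transport and are the core of cilia. Mammals make several versions of each chain, called isotypes, from separate genes; some are made in most cells, and others mainly in neurons, platelets or ciliated cells. Cells also control tubulin mRNA after transcription: free tubulin dimers in excess lead to decay of the tubulin mRNAs being translated. Beta isotypes differ most in their acidic carboxy-terminal tails, where motors, associated proteins and modifying enzymes bind.

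The libraries held 3578, 3726, 3658 and 4327 cells in the order of the groups above, 15289 in all, and 38927267 to 64524196 gene and transposable element (TE) counts per library. The median count per cell was 15784.5 to 17369.5 in 3 libraries and 8449 in HCT116 with DAC+SB. Levels are given as CPM, that is 1000000 times a count over the sum of gene and TE counts of its library; TEs took 0.199% and 0.319% of counts with DMSO and 3.09% and 5.56% with DAC+SB in H1299 and HCT116. Mitochondrially encoded genes took a median of 8.33% and 8.87% of a cell's counts in H1299, against 15.8% and 18.6% in HCT116, with DMSO and DAC+SB. Between 18 and 30 cell barcodes were shared by any pair of libraries, and 131 barcodes occurred in more than 1 library. The line labels were checked with marker lists: 8 H1299-like genes summed to 3024 and 1255 CPM in H1299 against 84.7 and 290 CPM in HCT116. EPCAM, an epithelial surface protein, was at 0.0155 and 4.47 CPM in H1299 against 80.7 and 45.2 CPM in HCT116.

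The windows just upstream of the start sites are shown for 4 members that the results turn on: TUBA4A and TUBB2B, each near 0 in 1 line with DMSO, TUBB4B, which became the leading beta gene with DAC+SB, and TUBA1B, the alpha gene with the most counts in all 4 libraries. Each sequence is the 250 bases before the RefSeq transcript start on GRCh38.p14, written 5′ to 3′ on the gene's strand, with CG dinucleotides, the usual sites of DNA methylation, in capitals.
TUBA4A (chr2:219253919-219254168, minus strand): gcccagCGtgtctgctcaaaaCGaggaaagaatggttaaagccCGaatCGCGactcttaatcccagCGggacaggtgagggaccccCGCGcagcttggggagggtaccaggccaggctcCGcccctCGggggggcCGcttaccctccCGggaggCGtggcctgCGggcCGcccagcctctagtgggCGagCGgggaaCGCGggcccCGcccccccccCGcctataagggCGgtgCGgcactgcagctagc
TUBB2B (chr6:3227654-3227903, minus strand): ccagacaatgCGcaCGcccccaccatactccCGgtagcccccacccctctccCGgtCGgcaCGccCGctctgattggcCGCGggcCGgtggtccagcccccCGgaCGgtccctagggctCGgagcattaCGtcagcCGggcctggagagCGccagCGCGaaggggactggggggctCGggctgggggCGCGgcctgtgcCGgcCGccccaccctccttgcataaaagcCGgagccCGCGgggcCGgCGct
TUBB4B (chr9:137241037-137241286, plus strand): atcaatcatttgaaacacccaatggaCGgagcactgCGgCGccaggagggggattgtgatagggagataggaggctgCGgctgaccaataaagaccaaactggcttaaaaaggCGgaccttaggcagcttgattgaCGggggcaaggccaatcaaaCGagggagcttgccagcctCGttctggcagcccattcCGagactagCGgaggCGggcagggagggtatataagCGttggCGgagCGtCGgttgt
TUBA1B (chr12:49131396-49131645, minus strand): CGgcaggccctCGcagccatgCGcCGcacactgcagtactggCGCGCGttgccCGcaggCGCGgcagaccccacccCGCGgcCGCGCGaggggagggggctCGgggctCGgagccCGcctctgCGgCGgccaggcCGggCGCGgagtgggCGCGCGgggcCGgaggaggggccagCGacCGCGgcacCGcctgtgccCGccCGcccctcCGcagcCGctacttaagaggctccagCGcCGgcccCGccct

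The TUBA4A window held 23 CG dinucleotides, that of TUBB2B 28, that of TUBB4B 15 and that of TUBA1B 38, against a median of 11 over the 35116 windows of the same length in the RefSeq table. The letters CCAAT, searched on both strands, occurred 3 times in the TUBB4B window, 1 time in the TUBB2B window and 0 times in the other two; 32.0% of all windows held them. GGGCGG, the core of a GC box, occurred 4 times upstream of TUBA4A, 3 times upstream of TUBA1B, 1 time upstream of TUBB2B and 0 times upstream of TUBB4B, on either strand and with matches that overlap each other counted; 42.6% of all windows held it. Matches of the 2 motifs did not overlap in these 4 windows. All 10 members matched the table, with 15 windows between them. The single TUBB2A window held 33 CG dinucleotides and 5 GGGCGG, and that of TUBA1A held 11 CG dinucleotides and 2 CCAAT. TUBB, TUBB3 and TUBB6 each had 2 windows, with 21 and 38, 9 and 39, and 17 and 43 CG dinucleotides. TUBA1C had 3 windows, with 1, 2 and 24. Methylation and factor binding were not measured, so these matches describe the sequence alone.

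With DAC+SB, TUBB4B took the place of TUBB as the first beta gene in the library totals of both lines, and TUBB became the second in H1299 and, after TUBB2A and TUBB3, the fourth in HCT116. TUBB, the gene with the most beta-tubulin counts in both DMSO libraries, was lower by 2.21-fold in H1299 and 3.38-fold in HCT116. TUBB4B was higher by 2.09-fold and 2.97-fold and became the beta gene with the most counts in both treated libraries. In H1299 this order did not hold in cells low in G2/M (division) genes: in the 50% of treated cells with the lowest share of such counts, TUBB stood at 297 CPM and TUBB4B at 166, against 141 and 763 CPM in HCT116. TUBB2A, TUBB2B, TUBA1A and TUBA4A were more than 2-fold higher in both lines, and TUBB3 was more than 2-fold higher in HCT116 alone. TUBB6 and TUBA1B were lower in both lines by less than 2-fold, and TUBA1C was lower in H1299 and slightly higher in HCT116.

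TUBB encodes the class I beta-tubulin of most dividing cells (chr6:30720201-30725426, plus strand, GRCh38, GENCODE v29). Its level was 894 CPM in H1299 with DMSO, 404 in H1299 with DAC+SB, 587 in HCT116 with DMSO and 174 in HCT116 with DAC+SB, from 57715, 25222, 36774 and 6771 counts. Both treated libraries were below both DMSO libraries. The log2 ratio of DAC+SB over DMSO was -1.15 (-1.17 to -1.13) for H1299 and -1.75 (-1.79 to -1.72) for HCT116, which placed TUBB at the 4.85 and 5.70 percentile of all tested genes.

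TUBB4B encodes the class IVb isotype, made in most tissues and abundant in cilia (chr9:137241213-137243707, plus strand). It stood at 214, 448, 329 and 977 CPM in the same order of libraries, so that both treated libraries were above both DMSO libraries. The log2 ratio was 1.06 (1.03 to 1.09) in H1299 and 1.57 (1.54 to 1.59) in HCT116.

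TUBB2A and TUBB2B lie in the same stretch of chromosome 6 (chr6:3153669-3157526 and chr6:3224261-3231730, both minus strand) and encode class II beta-tubulins, the main beta isotypes of brain. TUBB2A was at 24.0 CPM in H1299 with DMSO, 79.0 with DAC+SB, 54.2 in HCT116 with DMSO and 228 with DAC+SB. Its log2 ratio was 1.72 (1.64 to 1.80) and 2.07 (2.02 to 2.13). TUBB2B was at 11.1, 71.6, 0.112 and 17.1 CPM, and the HCT116 DMSO value rests on 7 counts in 7 of 3658 cells. TUBB2B was thus the member nearest to 0 in HCT116 with DMSO, and its treatment ratio was 6.44-fold in H1299 (log2 2.69, 2.57 to 2.80) and 153-fold in HCT116 (73.7 to 381, log2 7.25). The HCT116 DMSO counts stood in 1 of 2 features of the gene, and with only features listed in both libraries of the line the log2 ratio was 5.95. The 2 genes share 98.2% of their coding bases, and 65.5% of the 50-base windows of the TUBB2A transcript and 52.2% of those of TUBB2B also occur in another gene, so reads between them are uncertain. Within the first 300 bases of the transcript, nearest the end that a 5′ assay reads, 39.0% of TUBB2A windows and 7.57% of TUBB2B windows were shared. PSMG4, which overlaps TUBB2B on the other strand, had 1191 to 13027 counts per library, and the strand setting of the counting was not given.

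TUBB3 encodes class III beta-tubulin, used widely as a marker of neurons and also made by many tumours (chr16:89921392-89938761, plus strand). It was at 108, 180.2, 70.9 and 193 CPM. Treated libraries were again above both DMSO libraries, and the log2 ratios were 0.74 (0.69 to 0.78) for H1299 and 1.44 (1.39 to 1.50) for HCT116. Most of its transcript, 89.4% of windows, is shared with other genes, mainly AC092143.1, a same-strand gene that overlaps it and whose name does not occur in the count tables. In its first 300 bases, 29.1% of windows were shared.

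TUBB6, the class V isotype (chr18:12307669-12344320, plus strand), was at 161, 99.2, 90.6 and 74.7 CPM. The ratio was log2 -0.70 (-0.74 to -0.65) in H1299 and -0.28 (-0.34 to -0.21) in HCT116, where all tested genes had a median of -0.23. TUBB6 in H1299 with DAC+SB stayed above HCT116 with DMSO.

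Of the alpha genes, TUBA1B, which encodes a widely made alpha-tubulin (chr12:49127782-49131397, minus strand), was the most abundant in every library at 473, 273, 566 and 396 CPM. It was lower with DAC+SB by log2 -0.79 (-0.82 to -0.77) in H1299 and -0.52 (-0.54 to -0.49) in HCT116. TUBA1C, a near-identical alpha-tubulin (chr12:49188736-49274603, plus strand), was at 234, 163, 181 and 201 CPM. The ratio for TUBA1C was log2 -0.52 (-0.56 to -0.48) in H1299 and 0.15 (0.11 to 0.19) in HCT116, so the lines differed in direction.

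TUBA1A is the main alpha-tubulin gene of developing neurons (chr12:49184796-49189324, minus strand). It was at 14.2, 54.4, 44.6 and 111 CPM, and the log2 ratios were 1.94 (1.84 to 2.05) for H1299 and 1.32 (1.25 to 1.39) for HCT116. Its 5′ end overlaps that of the longest TUBA1C gene model on the other strand, and the strand setting of the counting was not given in the sources used here. Coding identity was 97.2% between TUBA1A and TUBA1B, 96.8% between TUBA1B and TUBA1C and 95.9% between TUBA1A and TUBA1C. In the first 300 bases, 42.6% of TUBA1B windows and 0% of TUBA1A and TUBA1C windows were shared with another gene.

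TUBA4A, the alpha-tubulin gene known from platelets, muscle and brain, encodes a protein that lacks the carboxy-terminal tyrosine of most other alpha-tubulins (chr2:219249711-219278170, minus strand). It had 5 counts in 4 of 3578 cells in H1299 with DMSO, or 0.0775 CPM, against 9.82 CPM in H1299 with DAC+SB, 16.2 in HCT116 with DMSO and 110.7 in HCT116 with DAC+SB. H1299 with DMSO thus stood apart from the other 3 libraries. The treatment ratio was 127-fold (54.0 to 392) in H1299 and 6.85-fold (log2 2.78, 2.68 to 2.88) in HCT116. The H1299 value, log2 6.99, was 6.02 with only features listed in both libraries of the line and 5.40 in the 50% of cells lowest in G2/M genes. Only 5.25% of its transcript windows and 0% of those in the first 300 bases were shared. TUBA4B, which overlaps it on the other strand, had 0 to 6 counts per library. STK16 also overlaps it on the other strand and had 976 to 2869 counts, and the strand setting of the counting was not given.

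**Figure D1:**
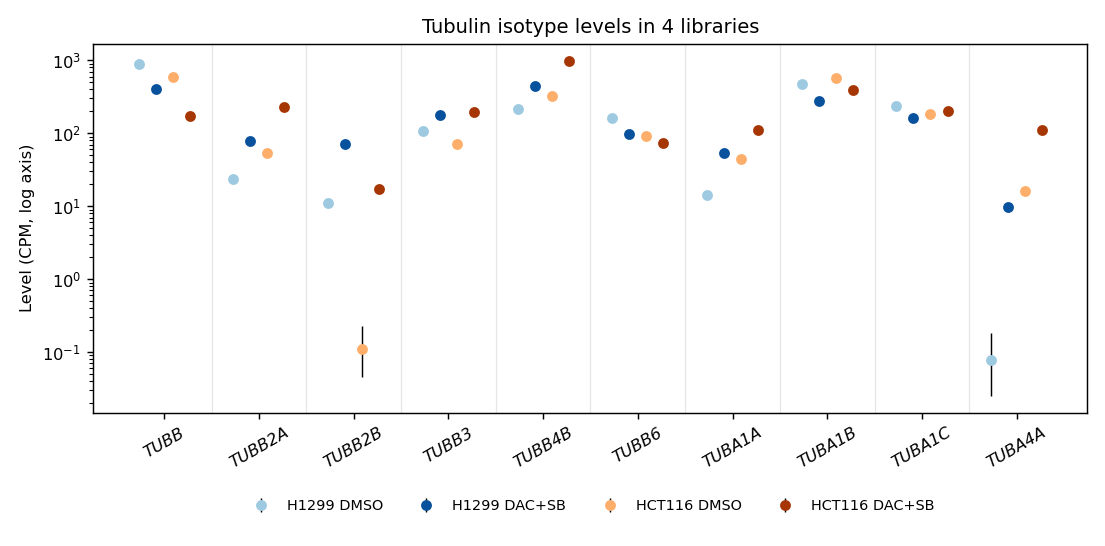
Levels of the 10 tubulin genes in CPM on a log axis, 1 point per library, with 95% Poisson intervals (counting error only). TUBB points are lower and TUBB4B points higher with DAC+SB in both lines, and TUBA4A in H1299 with DMSO (0.0775) and TUBB2B in HCT116 with DMSO (0.112) lie far below the rest.

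In counts past 2-fold, with at least 100 counts required in the higher library, 5 of the 10 members were higher and 1 was lower in H1299, where 18.3% of 14610 tested genes were higher and 7.34% were lower. In the 50% of H1299 cells lowest in G2/M share the counts were 4 and 3, beside 13.1% and 11.5% of the 12568 genes tested there. In HCT116, 6 members were higher and 1 was lower, against 16.2% higher and 20.0% lower of 13539 tested genes. The members' median log2 ratio was 0.90 in H1299 and 1.38 in HCT116, and that of all tested genes was -0.07 and -0.23. At 4-fold, TUBB2B and TUBA4A remained in H1299 and TUBB2A, TUBB2B and TUBA4A in HCT116. TUBA4A in H1299 and TUBB2B in HCT116 reached 100 counts only with DAC+SB, so neither could be called lower there. Since the members were chosen with earlier results of these data known, their counts beside all genes are a description only.

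**Figure D2:**
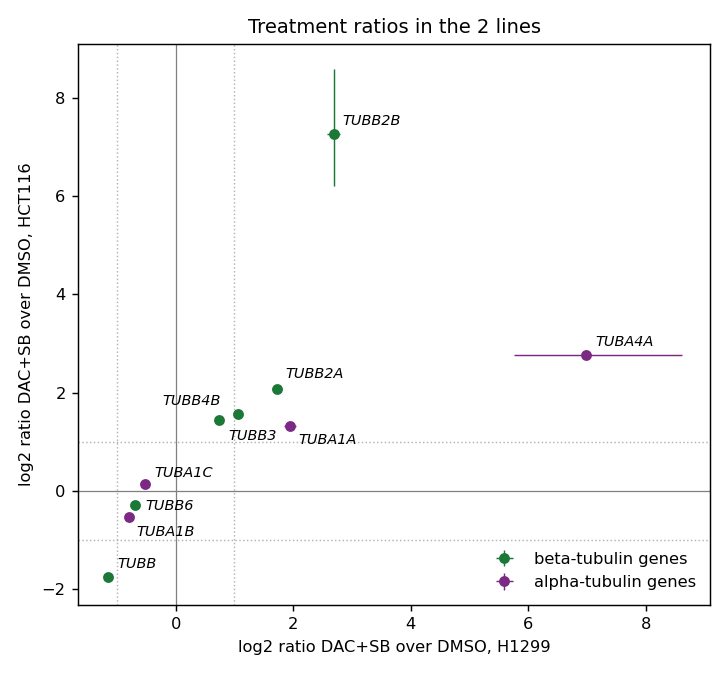
log2 ratio of DAC+SB over DMSO in H1299 (horizontal) and HCT116 (vertical) for each tubulin gene, with 95% counting intervals, beta genes and alpha genes in separate colours and dotted lines at 2-fold. TUBB lies at the lower left (-1.15 and -1.75), while TUBA4A (6.99 and 2.78) and TUBB2B (2.69 and 7.25) lie far out along different axes.

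The size of the ratio differed between lines beyond counting error for every member. As H1299 minus HCT116 on the log2 scale, the difference was 4.21 (2.94 to 5.48) for TUBA4A and -4.57 (-5.65 to -3.49) for TUBB2B, the members that were near 0 in 1 DMSO library. For TUBB it was 0.61 (0.57 to 0.65), the ratio being lower in HCT116, and for TUBA1A 0.63 (0.50 to 0.75). TUBB3 and TUBB4B had differences of -0.71 (-0.78 to -0.64) and -0.51 (-0.54 to -0.47), and TUBB2A of -0.35 (-0.45 to -0.25). For TUBB6, TUBA1B and TUBA1C the difference was -0.42, -0.28 and -0.67. With 1 library per group, these intervals say nothing of the spread between cultures.

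Summed over isotypes, tubulin stayed within 2-fold. The 6 beta genes summed to 1413 and 1282 CPM in H1299 and to 1132 and 1664 CPM in HCT116, with DMSO and DAC+SB, log2 ratios of -0.14 and 0.56. The 4 alpha genes summed to 721 and 500.2 CPM in H1299 and to 808 and 819 CPM in HCT116, log2 ratios of -0.53 and 0.019, the latter with an interval that includes 0. All 10 together gave 2134 and 1783 CPM in H1299 (log2 -0.26) and 1941 and 2483 CPM in HCT116 (log2 0.36).

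The make-up of the beta pool turned over. TUBB held 63.3% of beta counts in H1299 with DMSO and 31.5% with DAC+SB, and 51.9% and 10.5% in HCT116. TUBB4B went from 15.2% to 35.0% in H1299 and from 29.1% to 58.7% in HCT116. TUBB2A took 1.70%, 6.16%, 4.79% and 13.7% in the order of the groups, and TUBB3 took 7.65%, 14.1%, 6.26% and 11.6%. TUBB2B reached 5.59% in H1299 with DAC+SB and 1.03% in HCT116 with DAC+SB. In the alpha pool TUBA1B stayed first, at 65.5% and 54.5% in H1299 and 70.0% and 48.3% in HCT116, while TUBA1A took 1.96%, 10.9%, 5.52% and 13.6% and TUBA4A 0.0107%, 1.96%, 1.999% and 13.5% in the order of the groups.

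Levels of TUBB and TUBB4B were also set side by side per length. Per kb of the principal GENCODE transcript, TUBB stood at 335, 151, 220 and 65.1 CPM and TUBB4B at 131, 274, 201 and 597 CPM, so TUBB was still first of the beta genes in both DMSO libraries and TUBB4B first in both treated libraries. A 5′ assay counts molecule ends, for which transcript length need not matter, and both scales gave the same order at the top.

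**Figure D3:**
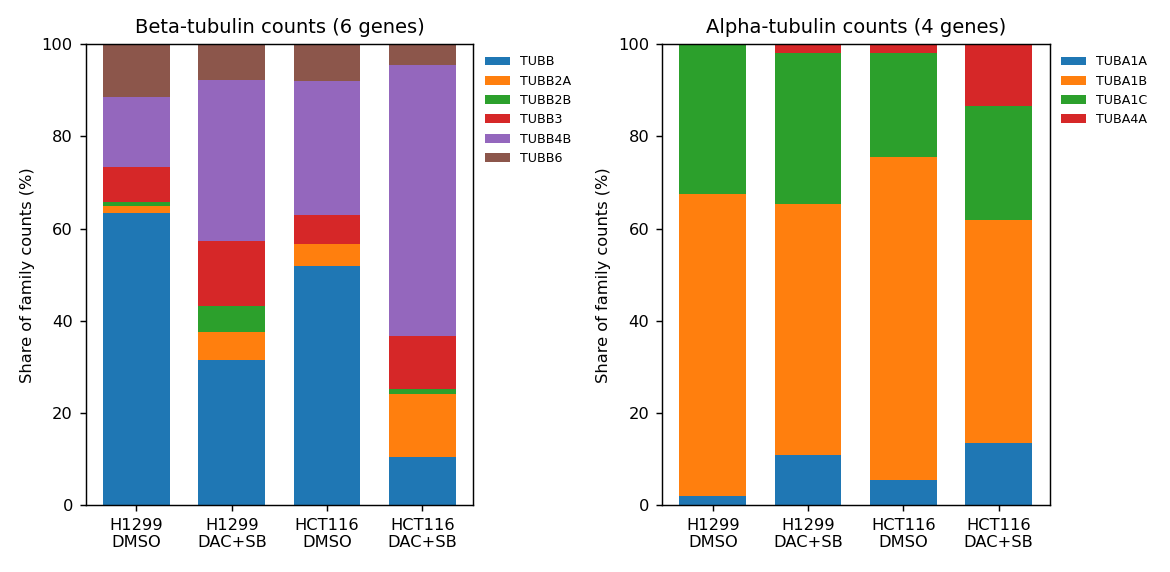
Share of beta-tubulin counts (left) and alpha-tubulin counts (right) in percent taken by each gene, 1 stacked bar per library. The TUBB share shrinks from 63.3% to 31.5% in H1299 and from 51.9% to 10.5% in HCT116 with DAC+SB, and TUBB4B takes most of the HCT116 treated bar (58.7%).

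The same TUBB and TUBB4B counts were then set side by side within cells, a description of how they were spread over cells that was chosen after the values above were known. Each cell was thinned to 3300 counts, which left out 402 of the 4327 cells of HCT116 with DAC+SB and 0 in the other libraries. After thinning, TUBB4B outnumbered TUBB in 7.77% of cells in H1299 with DMSO (278 of 3578), 32.5% with DAC+SB (1211 of 3726), 20.7% in HCT116 with DMSO (756 of 3658) and 77.2% with DAC+SB (3029 of 3925). TUBB outnumbered TUBB4B in 78.0%, 38.5%, 57.2% and 6.52%. The remaining cells had equal counts above 0 (6.40%, 11.5%, 13.1% and 6.68%) or no count of either gene (7.80%, 17.6%, 9.08% and 9.63%). HCT116 with DAC+SB was thus mostly made of cells with more TUBB4B. In H1299 with DAC+SB, cells with more TUBB still outnumbered those with more TUBB4B.

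The share of thinned cells with at least 1 count followed the levels. For TUBB it was 88.6%, 65.4%, 81.2% and 38.0%, and for TUBB4B 42.0%, 56.6%, 56.3% and 86.4%. TUBB2B was found in 3.41% and 18.7% of H1299 cells and in 0.0273% (1 cell) and 4.69% of HCT116 cells. TUBA4A was found in 0.0279% (1 cell) and 2.71% of H1299 cells and in 4.89% and 27.7% of HCT116 cells. TUBB2A went from 6.51% to 17.3% in H1299 and from 14.8% to 46.2% in HCT116, and TUBA1A from 4.72% to 15.5% and from 12.9% to 29.2%. Without thinning, TUBB was found in 99.4%, 94.3%, 98.7% and 64.5% of cells, TUBB4B in 81.6%, 85.2%, 91.7% and 95.9%, TUBB2B in 15.2%, 54.4%, 0.191% and 11.2%, and TUBA4A in 0.112%, 12.8%, 19.7% and 48.6%. No cell type lacking these genes was present to measure free RNA, so the part of free RNA in low shares was not tested.

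**Figure D4:**
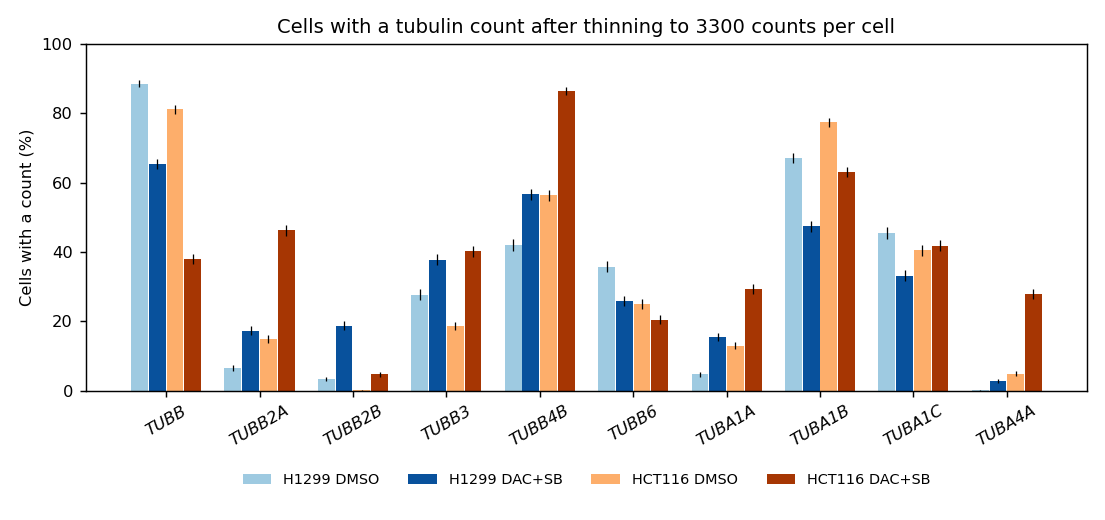
Percent of cells with at least 1 count of each tubulin gene after thinning every cell to 3300 counts, 1 bar per library, with exact binomial 95% intervals. TUBB bars shrink with DAC+SB (88.6% to 65.4% and 81.2% to 38.0%), and those of TUBB2A, TUBB3, TUBB4B, TUBA1A and TUBA4A grow in both lines.

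The lines also differed before treatment. With DMSO, TUBB2B was more than 2-fold higher in H1299 (log2 6.64, 5.59 to 7.96, H1299 over HCT116), and TUBB2A (-1.18), TUBA1A (-1.66) and TUBA4A (-7.70, -9.33 to -6.48) were more than 2-fold lower. That is 1 member higher and 3 lower of 10, where 20.5% of 13796 tested genes were higher and 15.2% were lower. With DMSO, TUBB2B reached 100 counts only in H1299 (718 and 7) and TUBA4A only in HCT116 (5 and 1012). TUBB2B thus could not be called lower in this comparison, nor TUBA4A higher. TUBB, TUBB3, TUBB4B, TUBB6, TUBA1B and TUBA1C lay between, from log2 -0.62 for TUBB4B to 0.83 for TUBB6. With DAC+SB, TUBB (1.22) and TUBB2B (2.07) were more than 2-fold higher in H1299, and TUBB2A (-1.53), TUBB4B (-1.12), TUBA1A (-1.03) and TUBA4A (-3.49) were more than 2-fold lower. Those are 2 and 4 members, against 25.4% and 12.1% of 14875 tested genes. The gap between lines for TUBA4A and TUBB2B was narrower with DAC+SB than with DMSO, and that for TUBB and TUBB4B was wider.

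Tubulin genes are known to be expressed unevenly through the cell cycle, so the members were set against a list of 30 G2/M genes that holds no tubulin. The list summed to 3249 CPM in H1299 with DMSO and 2420 with DAC+SB, and to 2838 and 1558 CPM in HCT116. None of its 30 genes was more than 2-fold lower in H1299 and 15 were in HCT116, beside 7.34% and 20.0% of all tested genes. In either line 0 were higher, and the median log2 ratio of the list was -0.51 and -0.99. Over all tested genes the median was -0.07 and -0.23. Within each library, the 25% of cells with the highest share of G2/M counts were then compared with the 25% with the lowest (894 to 1081 cells on each side).

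TUBB4B had the steepest slope of the 10 members across G2/M in each of the 4 libraries. It went from 76.8 to 394 CPM in H1299 with DMSO, from 113 to 951 in H1299 with DAC+SB, from 188 to 513 in HCT116 with DMSO and from 719 to 1434 in HCT116 with DAC+SB, log2 ratios of 2.36, 3.07, 1.45 and 1.00. In H1299 the treated cells lowest in G2/M had 113 CPM of TUBB4B against 76.8 in the matching DMSO cells, and in HCT116 they had 719 against 188. The G2/M sums of those lowest cells were 136 and 762 CPM in H1299 and 289 and 971 CPM in HCT116, with DAC+SB and DMSO, so these cells are not matched between libraries.

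TUBA1C followed, with log2 ratios of 1.51, 2.50, 0.80 and 0.87, and TUBA1B had 0.69, 1.94, 0.16 and 0.66. TUBB had 0.99, 1.02, 0.49 and 0.82, and TUBB6 had 0.99, 1.08, 0.54 and 0.28. TUBB2A was also higher in G2/M-rich cells, by 0.52, 0.90, 0.33 and 0.15. TUBB2B was at 0.007 (-0.31 to 0.32) in H1299 with DMSO, 0.40 (0.28 to 0.51) in H1299 with DAC+SB and 0.03 (-0.29 to 0.35) in HCT116 with DAC+SB. In HCT116 with DMSO it had too few counts. TUBB3 was lower in G2/M-rich cells of 3 libraries, with -0.46, -0.59 and -0.43, and stood at -0.11 (-0.23 to 0.01) in HCT116 with DMSO. With the highest 10% of cells set against the lowest 50%, TUBB3 was at -0.11 (-0.22 to 0.002) in H1299 with DMSO and 0.08 (-0.06 to 0.22) in HCT116 with DMSO, intervals that include 0, and at -0.36 and -0.21 in the treated libraries. TUBB4B, with 2.11, 2.91, 1.48 and 1.16, had the highest ratio under that split as well. TUBA1A was at 0.19, 0.24, 0.03 and -0.37, and TUBA4A at 0.73, 0.15 and -0.44 in the 3 libraries where it had enough counts. With the 10% to 50% split, TUBA1A was at 0.62 (0.33 to 0.90), 0.51, 0.21 and -0.23, and TUBA4A in HCT116 with DAC+SB was at -0.07 (-0.22 to 0.08). Under that split TUBB2B was at -0.17 (-0.56 to 0.20) in H1299 with DMSO and 0.67 (0.54 to 0.80) with DAC+SB. In HCT116 with DAC+SB it was at 0.25 (-0.13 to 0.62). Counts per cell differed too: the median in the 25% of cells richest and poorest in G2/M counts was 17755 and 15706.5 in H1299 with DMSO, 16899 and 14614 in H1299 with DAC+SB, 18201.5 and 14839.5 in HCT116 with DMSO, and 8398 and 8232 in HCT116 with DAC+SB. In that last library the order turned with the other split, at 8004.5 in the highest 10% and 8387 in the lowest 50%.

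**Figure D5:**
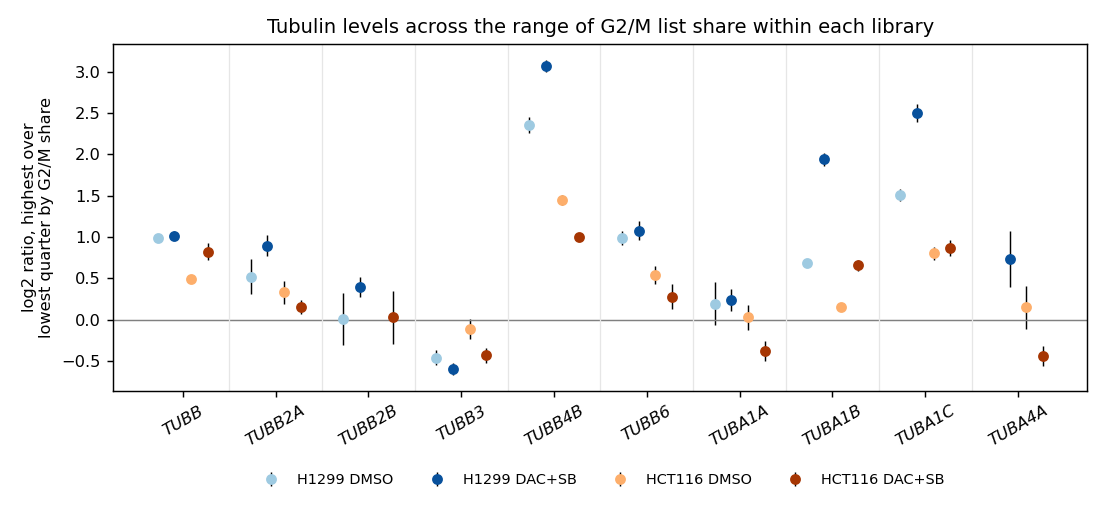
log2 ratio of each tubulin gene's CPM in the 25% of cells with the highest G2/M share over the 25% with the lowest, 1 point per library with 95% counting intervals; genes with too few counts in a library are not drawn. TUBB4B points lie highest in each library (2.36, 3.07, 1.45 and 1.00), and those of TUBB3 lie at -0.46, -0.59, -0.11 and -0.43; with the highest 10% over the lowest 50% of cells its DMSO values were -0.11 and 0.08.

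The TUBB4B ratio in H1299 was smaller among cells low in G2/M. In the 50% of cells with the lowest G2/M share, its log2 treatment ratio was 0.56 in H1299, below 2-fold, and 1.74 in HCT116. TUBA1B and TUBA1C were lower by more than 2-fold in those H1299 cells, at -1.45 and -1.08, so that 4 members were higher and 3 lower there, as counted above. These cells were not matched in G2/M content: the list stood at 1330 CPM with DMSO and 492 with DAC+SB in H1299, and at 1458.5 and 654 CPM in HCT116.

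Genes most like a member across cells were sought for members with a mean of at least 0.5 counts per thinned cell, with a Pearson correlation of at least 0.3. Only TUBB4B in H1299 with DAC+SB had any, over 3726 cells of 1 library: CKS2 (0.383), a partner of cyclin-dependent kinases, ARL6IP1 (0.378), a protein that shapes the endoplasmic reticulum, and CDC20 (0.375), an activator of the anaphase-promoting complex. Between members, TUBB4B and TUBA1C correlated at 0.337 in the same library. These are descriptions within 1 library and carry no test.

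Other tubulin genes, 10 in the list, were mostly near 0. Of 5 tested in H1299, 3 were higher and 0 lower, beside 18.3% and 7.34% of all tested genes. Of 4 tested in HCT116, 1 was higher and 0 lower, beside 16.2% and 20.0%. TUBA3D, an alpha-tubulin gene known from testis, was listed at 0 with DMSO in both lines and had 791 counts in H1299 and 577 in HCT116 with DAC+SB. No fold is given against a listed 0, since part of a gene's counts is listed only from 10 counts. TUBA3E, its close copy, had 0 and 621 counts in H1299 and 0 and 22 in HCT116, under the minimum. TUBA3D in both lines and TUBA3E in H1299 reached that minimum only with DAC+SB, so they could not be called lower there. TUBB4A, the class IVa beta-tubulin of brain, had log2 ratios of 3.67 in H1299 and 0.87 in HCT116.

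Lists of the machinery that makes and handles tubulin were counted in the same way, and their counts are to be read against the shares of all tested genes, which for H1299 were 18.3% (higher) and 7.34% (lower) and for HCT116 16.2% and 20.0%. Of 11 genes for gamma-tubulin and nucleation, 0 were higher and 1 was lower in H1299 and 0 and 3 in HCT116, with medians of -0.29 and -0.74. The ring components TUBGCP4 (-1.10 and -1.48), TUBGCP3 (-0.85 and -2.13) and MZT1 (-0.77 and -1.17) gave the values past 2-fold. Of 20 genes for tubulin folding, 0 were higher and 2 lower in H1299 and 1 and 4 in HCT116, medians -0.11 and -0.28; the lower counts were near the share of all genes. Among them the prefoldin subunits PFDN1 (-1.04 and -1.05) and VBP1 (-1.01 and -1.19) were lower in both lines, and the tubulin cofactors TBCD (-0.33 and -1.27) and TBCC (-0.11 and 1.10) passed 2-fold in HCT116 in opposite directions. Another of the 4, ARL2, a small GTPase of tubulin folding, was at -1.37. With the joined names that hold most of its counts it was at -0.99, so that 3 remained. Of the other prefoldin subunits in the list, PFDN2 (-0.65 and -0.93) and PFDN4 (-0.78 and -0.73) were lower in both lines by less than 2-fold. PFDN5 (0.12 and 0.62) and PFDN6 (0.14 and 0.77) were higher in both by less than 2-fold. ARL2 and these subunits were chosen after their values were seen.

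Of tubulin-modifying enzymes, 19 were tested in H1299, with 2 higher and 0 lower, and 16 in HCT116, with 1 higher and 1 lower. TTLL9 (2.66 and 5.75) was higher in both lines, TTLL1 (1.42 and 0.12) in H1299, and TTLL12 (-0.23 and -1.96) was lower in HCT116. All these belong to the tubulin tyrosine ligase-like family. TTLL9 had only 31 and 8 counts with DMSO in H1299 and HCT116, and reached the 100-count minimum only with DAC+SB. TTC5, which recognises nascent tubulin chains in the decay of tubulin mRNA, was at 0.12 and -0.09. HDAC6, a tubulin deacetylase, was at -0.13 and -0.54. TTC5 and HDAC6, which did not pass 2-fold, were chosen after their values were seen.

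Of microtubule-associated proteins, 6 of 21 tested were higher and 1 lower in H1299, and 3 of 22 were higher and 4 lower in HCT116, where both counts were near the share of all genes. MAPT, the axonal protein tau, had log2 ratios of 2.37 and 0.26, CLIP1, a plus-end protein, -0.83 and -1.80, and STMN3, a stathmin, -0.96 and -1.15. STMN1, which sequesters tubulin dimers, was at -0.64 and -1.09, but most of its counts stood under a name joined with another gene. With those added it was at -0.21 and -0.41, so that 3 of the 4 lower genes remained in HCT116. MAP2, a dendritic protein (2.72 and 1.30), and MAP1A (1.47 and 2.16), both chosen after their values were seen, were higher in both lines. MAP7, chosen in the same way, was at 1.57 in H1299 and -0.94 in HCT116, opposite in direction. CAMSAP3 in H1299 (46 counts with DMSO and 282 with DAC+SB), among the 6 higher, reached the count minimum only with DAC+SB. It could thus not be called lower there. DCLK2 in HCT116 (136 counts with DMSO and 38 with DAC+SB), among the 4 lower, reached the minimum only with DMSO. It could thus not be called higher there. CAMSAP3 and DCLK2 were named after their values were seen. Of the severing and depolymerising proteins, 0 of 9 passed 2-fold in H1299 and 1 of 8 in HCT116, the depolymerase KIF2C (-0.34 and -1.44).

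Since TUBB2A, TUBB2B, TUBB3 and TUBA1A are known from neurons, a list of 8 neuron genes was counted beside them. It summed to 88.9 and 146 CPM in H1299 and to 23.3 and 82.2 CPM in HCT116, with DMSO and DAC+SB, and 2, 1, 3 and 0 of its genes were at 0. Of 5 tested, H1299 had 3 and HCT116 had 4 higher, with 0 lower and medians of 1.34 and 2.08. Over all tested genes 18.3% and 16.2% were higher and 7.34% and 20.0% lower, with medians of -0.07 and -0.23. ELAVL3, a neuronal RNA-binding protein, had log2 ratios of 5.46 and 8.86 (7.31 to 11.1), the latter on 3 counts with DMSO. SYP, a synaptic vesicle protein, had 1.34 and 2.08, and SYT1, a vesicle calcium sensor, 2.44 and 0.54. INA, a neuronal intermediate filament, had -0.51 in H1299 and 0 and 655 counts in HCT116. ELAVL3 in both lines and INA in HCT116 reached the 100-count minimum only with DAC+SB, so they could not be called lower there. In HCT116 this held for SNAP25 too (72 and 105 counts, log2 1.23), named after its values were seen. In H1299 SNAP25 was at -0.59 (506 and 326 counts). Whether these genes and the members moved in the same cells was not tested.

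The count tables split many genes into a feature without a number and a numbered one, listed only from 10 counts. What the number stands for was not given in the sources used here. The TUBA4A counts of H1299 with DMSO and the TUBB2B counts of HCT116 with DMSO stood in the feature without a number alone, so a numbered feature of up to 9 counts could be missing. Among members with both features in both libraries, the numbered share was higher with DAC+SB in 5 of 9 in H1299 and in 9 of 9 in HCT116, where 60.7% of 8189 and 70.8% of 8861 genes did likewise. TUBA1A, for example, went from 42.6% to 56.6% numbered in HCT116, and TUBB from 43.7% to 51.7%.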

How the data were processed

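Single-cell RNA of H1299 and HCT116 was counted per cell and feature. The authors deposited whole-number counts of genes and of TEs; the submitters' processing notes name CASAVA, STAR and the builds GRCh38 and hg38, with no role. Use of unique molecular identifiers in counting was not given in the sources used here. Cell filters and doublet removal beyond the deposit were not applied, and the lowest cell total was 2086. Features of the same gene name were summed per library and divided by gene plus TE counts. Ratios had exact conditional binomial intervals, levels exact Poisson and shares exact (Clopper-Pearson) intervals. Differences between lines used a normal approximation. Count sums below 100 in both libraries were not tested, and a count of 0 was set to 3. The code was tested on simulated data. Named genes were the members, up to 4 genes per list with most counts past 2-fold, and the 3 best correlated genes. Apart from genes that overlap a member, genes outside this rule are marked where named. Members and lists were chosen with earlier results of these data known. Alternatives covered scaling, joined names, features, cells and thresholds. Python 3.11.15, numpy 2.4.6, scipy 1.17.1 and pandas 2.3.3 were used.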

Additional observations from a re-analysis of the deposited data

Results flagged for a closer look

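TUBA1C went in opposite directions in the lines with DAC+SB, with a log2 ratio of -0.52 in H1299 and 0.15 in HCT116. The beta-tubulin sum did so as well, with -0.14 and 0.56, as did the sum of all 10 genes, with -0.26 and 0.36. The alpha-tubulin sum gave -0.53 and 0.019, but the interval of the HCT116 value includes 0, so it shows no opposite direction. With 1 library per group the difference was not tested against replicates.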

How the results depend on the processing

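No paired analysis was possible because each group is 1 library. The log2 ratio of the 10-gene sum was -0.26 in H1299 and 0.36 in HCT116; it was -0.22 and 0.43 with gene counts alone as the total, -0.27 and 0.38 as a mean over cells, and -0.56 and 0.33 in the 50% of cells lowest in G2/M share; the cause was not tested. With a 4-fold threshold 2 and 3 members passed in place of 6 and 7. Over all genes 3745 passed 2-fold in H1299 and 4898 in HCT116; requiring only 1 count gave 16212 and 16397, and the 4-fold threshold gave 1663 and 1804, as both settings change what can pass. Of 160 member ratios recomputed under 8 alternatives, 38 could not change, as the gene had no joined name or unlisted feature; of the other 122, 88 moved within the counting interval, 34 beyond it and 0 reversed. TUBB stayed between -1.28 and -1.10 in H1299 and -1.87 and -1.68 in HCT116, and TUBA4A in H1299 between 5.40 and 7.03. Depth limits TUBA4A in H1299 with DMSO (5 counts) and TUBB2B in HCT116 with DMSO (7 counts) most. A further limit is that HCT116 with DAC+SB had the fewest counts per cell.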

Other observations

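Cells of each library were also compared by their share of TE counts, a split chosen after other values were seen. In H1299 with DAC+SB, the 25% of cells with the highest TE share had less TUBB4B than the 25% with the lowest (304 against 609 CPM), less TUBB (-0.94), less TUBA1C (-1.03) and less TUBA1B (-0.78), and more TUBB3 (0.26) and TUBA1A (0.16). TUBB6 (-0.48), TUBA4A (-0.39, -0.73 to -0.06) and TUBB2A (-0.35) were also lower in those cells, the last 2 opposite in sign to HCT116; that difference was not tested. The G2/M list stood at 1415 CPM in the TE-rich cells against 3602 in the TE-poor cells, and its part in these values was not tested. In HCT116 with DAC+SB, TUBB (-0.53), TUBA1B (-0.34), TUBB4B (-0.27), TUBA1C (-0.18) and TUBB6 (-0.17) were lower in TE-rich cells and TUBA4A was higher, at 149 against 92.5 CPM (0.69, 0.57 to 0.81), while TUBB2A (0.21) and TUBB3 (0.13) were slightly higher. The G2/M list stood at 1265 and 1879 CPM there, and the median count per cell at 7406 and 9993, in TE-rich and TE-poor cells (15753 and 16111 counts in H1299); the part of depth was not tested. With DMSO, TUBB (-0.44 in H1299 and -0.19 in HCT116), TUBB4B (-0.47 and -0.41) and TUBA1C (-0.40 and -0.33) were also lower in TE-rich cells. TUBB2A (-0.30 and -0.33) and TUBB3 (-0.21 and -0.23) were lower as well, TUBB3 unlike in the treated libraries. TUBA1B was at -0.03 and -0.33, TUBB6 at 0.05 and -0.19, and TUBA1A at 0.36 and -0.10. The G2/M list stood at 2775 and 3961 CPM in H1299 and 2687 and 3022 in HCT116, in TE-rich and TE-poor cells. TE counts are part of the CPM total.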
